A study of Mus musculus with 8 samples.

Results

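The splicing factor genes described here are 62 of the 23278 gene entries in each of 4 deposited expression tables, chosen by symbol alone: 11 SR protein genes (Srsf), 18 hnRNP genes (Hnrnp), 8 genes of the SF3A and SF3B complexes, 12 Snrp genes and 13 Prpf genes. The tables come from CD4+CD8+ double positive thymocytes of C57BL/6 mice, sorted on GFP and split into DP1 cells (low surface CD5 and TCRβ) and DP2 cells (high CD5, intermediate TCRβ). The 4 groups, each with 2 libraries, were Hdac3KO DP1 and Hdac3KO DP2 cells from Hdac3F/F LCK-Cre+ animals, and WT DP1 and WT DP2 cells from Hdac3+/+ animals. The age of the mice is not given in the sources used here. Cre was driven by LCK, a T lineage kinase gene, and all groups, WT included, were gated as GFP+. Libraries were made from rRNA-depleted total RNA pools, and nothing in the labels says whether replicates came from separate animals.

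Each table compares 2 groups and holds 1 FPKM per gene and group, a level scaled to transcript length and library size, with Cuffdiff's p and q. No spread between libraries can therefore be shown. A gene was called higher or lower when the q in the authors' deposited table was at or under 0.05, and log2 ratios carry a standard error worked back from the deposited p. Of the 62 genes 60 were tested by the authors, and Snrpn and Srsf12 are marked as not tested in every table. Prpf40b was also untested between the Hdac3KO stages. No table entry named Hnrnpll was found; 1 entry that joins Hnrnpa1 with a second gene was left out.

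Splicing removes introns from nascent transcripts on the spliceosome, which is built from the U1, U2, U4, U5 and U6 small nuclear ribonucleoproteins. Sm proteins form a ring on the RNA of most of these particles, SF3A and SF3B hold U2 at the branch point, and Prpf proteins act in U4/U6.U5 assembly and at the catalytic core. SR proteins mostly favour the use of nearby exons, and hnRNPs, which coat nascent RNA, often oppose it; in T cells the best known example is the exon choice in Cd45 (Ptprc).

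Promoters were read from RefSeq (GRCm38.p6) for 55 of the 62 genes. Those of 4 Snrp genes that were lower in Hdac3KO DP1 cells and of 2 Prpf genes that were higher are shown, as the 100 bases before the annotated start, 5′ to 3′. Capitals mark matches, on either strand, to GGGCGG for the GC box, to CCAAT for the box of that name, to CCGGAAG for an ETS motif or to TGACGT for a CRE, the last with overlapping matches on both strands in Snrpg.
Snrpc, chr17:27839987-27840086, + strand: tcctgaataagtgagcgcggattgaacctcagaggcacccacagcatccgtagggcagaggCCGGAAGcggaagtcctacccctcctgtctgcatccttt
Snrpd2, chr7:19149738-19149837, + strand: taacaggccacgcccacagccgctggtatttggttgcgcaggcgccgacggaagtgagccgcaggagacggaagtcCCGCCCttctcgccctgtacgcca
Snrpf, chr10:93589659-93589758, - strand: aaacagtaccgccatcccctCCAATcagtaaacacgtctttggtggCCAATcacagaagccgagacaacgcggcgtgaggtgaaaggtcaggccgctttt
Snrpg, chr6:86371440-86371539, + strand: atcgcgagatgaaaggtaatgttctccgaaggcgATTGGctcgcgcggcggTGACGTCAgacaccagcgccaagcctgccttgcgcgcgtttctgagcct
Prpf38b, chr3:108911730-108911829, - strand: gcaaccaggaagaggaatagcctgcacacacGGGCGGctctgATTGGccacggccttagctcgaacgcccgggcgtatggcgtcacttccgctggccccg
Prpf4b, chr13:34875429-34875528, + strand: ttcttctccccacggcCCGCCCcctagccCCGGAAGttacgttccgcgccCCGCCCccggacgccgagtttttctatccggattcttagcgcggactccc
No motif of the 6 searched is common to all 4 Snrp promoters shown: Snrpc holds 1 ETS match, Snrpd2 a GC box, Snrpf 2 CCAAT boxes, and Snrpg a CCAAT box beside the CRE matches. Prpf38b and Prpf4b both hold a GC box. In the same window the GC box was found in 3 of 10 Snrp promoters, 6 of 11 Prpf promoters, 47.6% of the 7404 promoters of genes tested in the DP1 genotype comparison and 24.7% of all 32851 promoters. The CCAAT box was found in 3 of the 10 Snrp, 6 of the 11 Prpf, 24.3% of the tested and 18.9% of all promoters. The ETS motif was held by 2 of the 10 Snrp, 2 of the 11 Prpf, 11.2% of the tested and 4.52% of all promoters, and the CRE letters by 1 Snrp and 2 Prpf promoters, 7.39% of the tested and 4.09% of all. The E-box letters, CACGTG, were searched as well, as was the TATA box, spelled TATAAA, and neither is in the 6 windows shown. They were found in 1 and 0 of the 10 Snrp promoters, 1 and 0 of the 11 Prpf promoters, 4.85% and 2.11% of the tested and 3.17% and 5.56% of all promoters.

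In DP1 cells 7 of 11 tested Snrp genes were lower in Hdac3KO than in WT cells, a count that fell to 1 with the length trend of all genes removed. Higher in Hdac3KO DP1 cells were 4 of 13 Prpf, 2 of 10 SR protein and 1 of 18 hnRNP genes, and differences between classes were not tested. Of the 60 tested genes 7 were called higher and 9 lower, against 10.7% higher and 12.9% lower among all 10511 genes tested in that deposited table. The 7 lower calls among 11 tested Snrp genes stand beside 1 lower call among 8 SF3A and SF3B genes, 1 among 13 Prpf genes, 0 among 10 SR protein genes and 0 among 18 hnRNP genes. The median log2 ratio was -0.75 for the Snrp genes, -0.32 for SF3A and SF3B, -0.26 for Prpf, 0.01 for hnRNP and 0.09 for SR protein genes; for the median gene among those with 10 FPKM or more in each group it was -0.11. Single genes ranged from -1.29 to -0.54 among the Snrp genes, from -0.98 to 0.56 in SF3A and SF3B and from -0.92 to 1.40 among the Prpf genes. They ranged from -0.92 to 0.65 among the hnRNP genes and from -0.28 to 0.71 among the SR protein genes. Centred on that median, 8 members were higher and 6 lower, and among all genes 13.6% were higher and 9.07% lower.

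**Figure D1:**
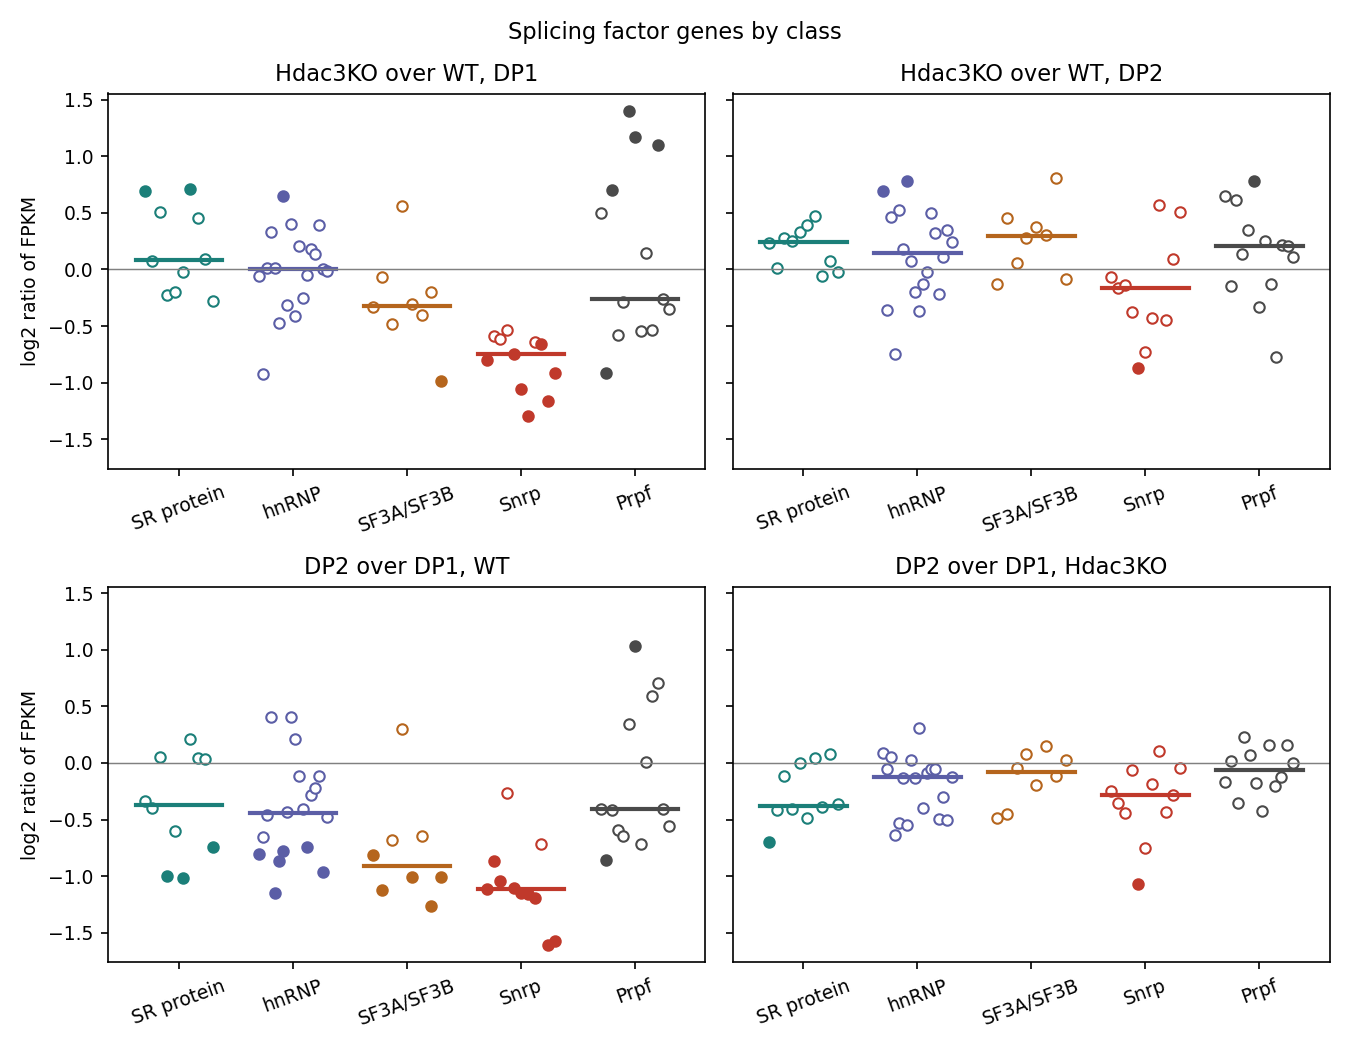
Log2 ratio of FPKM (vertical axis) of each tested splicing factor gene, by class (horizontal axis), in the 4 comparisons; filled points were called at a deposited q of 0.05, open points were not, and bars are class medians. All 11 Snrp genes lie under 0 in Hdac3KO against WT DP1 cells (10 of 11 once the length trend is removed), and 9 of 11 were called lower in WT DP2 against WT DP1 cells.

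Among the Sm ring genes, which encode the shared core of the particles, 5 of 7 tested were lower in Hdac3KO DP1 cells. In the authors' deposited table Snrpd2 had 117 FPKM in Hdac3KO DP1 and 286 FPKM in WT DP1 cells, a log2 ratio of -1.29 ± 0.32 (SE, q = 0.000879). Snrpf had a deposited 196 FPKM in Hdac3KO DP1 and 441 FPKM in WT DP1 cells, a log2 ratio of -1.17 ± 0.29 (q = 0.000879). Snrpd1 had a deposited 79.4 FPKM in Hdac3KO DP1 and 165 FPKM in WT DP1 cells, a log2 ratio of -1.06 ± 0.26 (q = 0.000879). These are subunits of 1 ring and had its 3 largest falls, with ratios of 0.409 for Snrpd2, 0.445 for Snrpf and 0.480 for Snrpd1. The other tested ring genes ranged from 0.530 (Snrpg) to 0.653 (Snrpb). Snrpg, a further ring subunit, had a deposited 78.7 FPKM in Hdac3KO DP1 and 148 FPKM in WT DP1 cells, a log2 ratio of -0.92 ± 0.29 (q = 0.0135). The fifth called ring gene was Snrpe, while Snrpd3 (q = 0.0526) and Snrpb (q = 0.0515) missed the threshold in the authors' deposited table. Snrpn, a tissue-restricted relative of Snrpb, was at 0.166 FPKM in Hdac3KO DP1 and 0.0269 FPKM in WT DP1 cells in the deposited table and was not tested.

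Of the 4 Snrp genes specific to U1 or U2, Snrpa and Snrpc (both of U1) were called lower in Hdac3KO DP1 cells, and Snrpa1 and Snrpb2 (both of U2) were not, at deposited q of 0.102 and 0.124. Snrpc had a deposited 51.3 FPKM in Hdac3KO DP1 and 86.3 FPKM in WT DP1 cells, a log2 ratio of -0.75 ± 0.26 (q = 0.0223). The 12 Snrp genes summed to 1108 FPKM in Hdac3KO DP1 and 2035 FPKM in WT DP1 cells, a ratio of 0.544, whereas the 18 hnRNP genes summed to 4969 FPKM in Hdac3KO DP1 and 5220 FPKM in WT DP1 cells, a ratio of 0.952. The Snrp sum was thus lower in the knockout cells while the much larger hnRNP sum was nearly level.

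**Figure D2:**
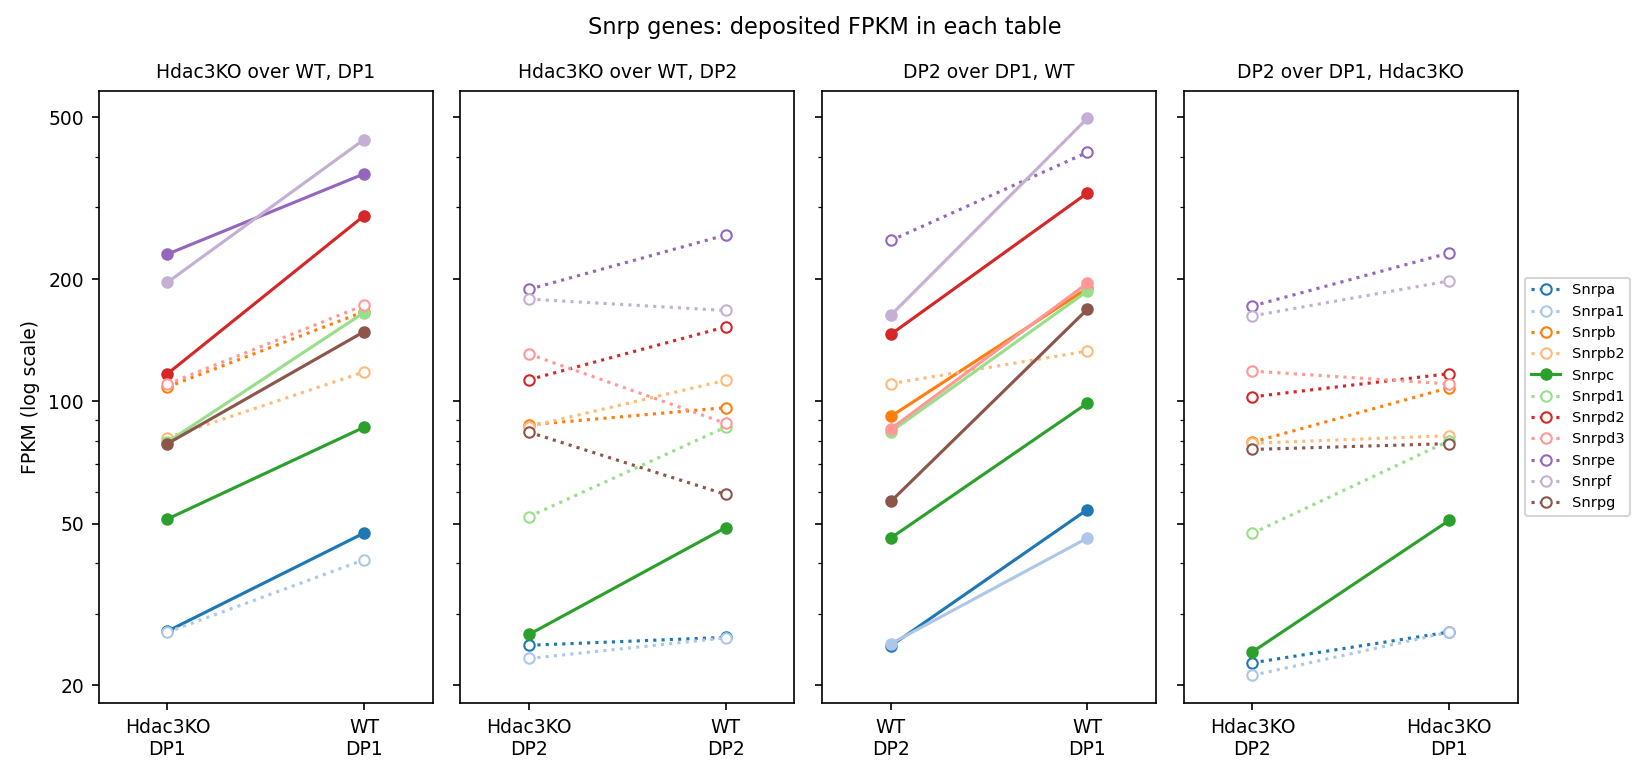
Deposited FPKM (vertical axis, log scale) of the 11 tested Snrp genes in both groups of each table, the later or knockout group on the left; solid lines and filled points mark genes called at a deposited q of 0.05, dotted lines and open points the rest. No error bars are drawn because the tables hold 1 value per group. The lines slope up towards WT DP1 in both tables that hold that group, and Snrpc is the gene with a solid line in every panel.

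Length moved with this result. Snrp transcripts are short: their longest annotated transcripts have a median of 1700.5 nt, with Snrpe the shortest at 669 nt, against 3586 nt for the other 50 members. Across all genes of at least 10 FPKM, the smoothed log2 ratio of Hdac3KO over WT DP1 cells was -0.64 at 1000 nt, -0.38 at 2000 nt and 0.15 at 5000 nt. Among the 1859 tested genes between 958 and 2043.5 nt, the quartile range of the Snrp genes, 24.1% were lower and 3.82% higher in Hdac3KO DP1 cells, and among the 920 of them with at least 10 FPKM 32.1% were lower and their median log2 ratio was -0.49. After subtraction of the length trend, 1 of 11 Snrp genes (Snrpc, q = 0.00324) was lower, against 5.64% lower and 8.85% higher among all genes, and the Snrp median was -0.35. Snrpd2 was then at -0.77 (q = 0.0832) and Snrpf at -0.49 (q = 0.261). The deposited p of both, and of Snrpd1, was at its minimum, so their standard errors are upper bounds and their retested q may be too high. The longest annotated Snrpc transcript has 6107 nt and its longest coding transcript in the basic annotation set 1013 nt; with the latter kind of length for every gene, Snrpc was at -0.11 (q = 0.827) and 0 of 11 Snrp genes were called lower, against 5.71% of all genes.

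The part of length in the Snrp result was not tested further. The trend was present in both tables that hold the WT DP1 libraries and nearly flat in the others: at 1000 nt it was 0.09 for Hdac3KO over WT in DP2 cells, -0.82 for DP2 over DP1 in WT cells and 0.02 for DP2 over DP1 in Hdac3KO cells.

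**Figure D3:**
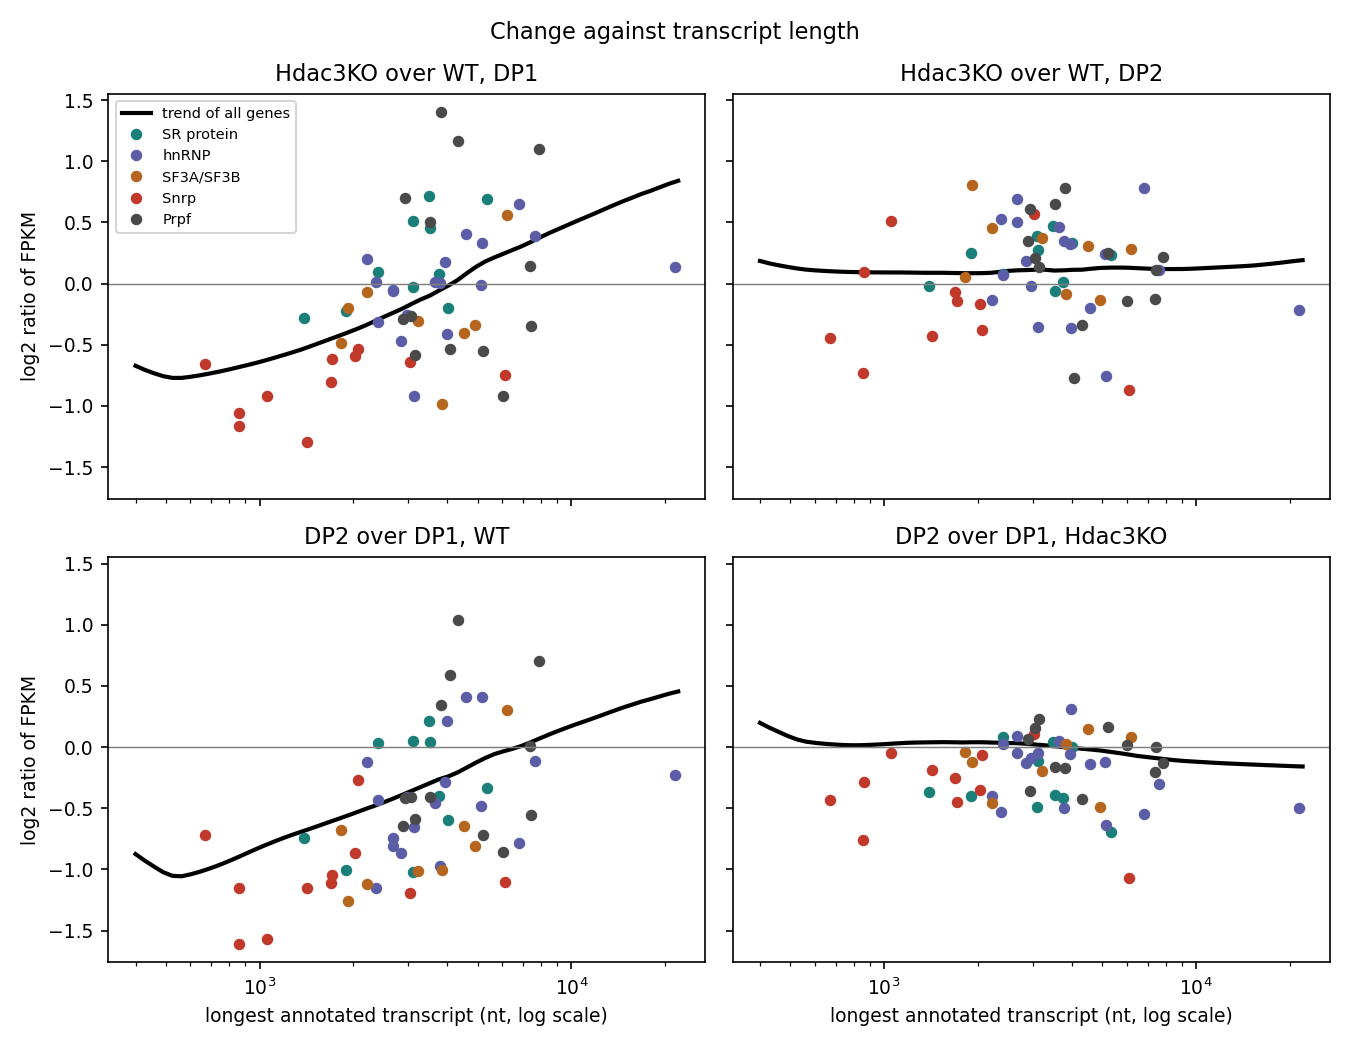
Log2 ratio of FPKM (vertical axis) against the length of the longest annotated transcript (horizontal axis, nt, log scale) for the tested splicing factor genes, coloured by class, with the smoothed trend of all genes as a black line. The line climbs with length for Hdac3KO over WT in DP1 cells (-0.64 at 1000 nt and 0.15 at 5000 nt) and for DP2 over DP1 in WT cells, and stays near 0 in the other comparisons.

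The only SF3A or SF3B gene called in DP1 cells was Sf3b5, a small subunit of the U2 complex. It had a deposited 25.9 FPKM in Hdac3KO DP1 and 51.3 FPKM in WT DP1 cells, a log2 ratio of -0.98 ± 0.28 (q = 0.00518). It stayed lower with the length trend removed (-0.94, q = 0.0124), but that value uses an annotated transcript of 3841 nt, whereas the locus of Sf3b5 in the tables spans 734 bases. Sf3b1, the subunit that contacts the branch point and the most abundant of this class, had a deposited 219 FPKM in Hdac3KO DP1 and 148 FPKM in WT DP1 cells, a log2 ratio of 0.56 ± 0.26 (q = 0.0947).

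Among the SR protein genes 2 of 10 were called in DP1 cells, both higher. Srsf5, the most abundant SR protein gene, had a deposited 359 FPKM in Hdac3KO DP1 and 219 FPKM in WT DP1 cells, a log2 ratio of 0.71 ± 0.24 (q = 0.0208). Srsf1, the founding SR protein, had a deposited 87.7 FPKM in Hdac3KO DP1 and 54.4 FPKM in WT DP1 cells, a log2 ratio of 0.69 ± 0.25 (q = 0.0311). With the length trend removed Srsf5 stayed higher (0.82, q = 0.0119) and Srsf1 was at 0.50 (q = 0.170). With the trend on GC content removed neither was called, at 0.57 for Srsf5 and 0.56 for Srsf1. The other 8 tested SR protein genes were not called; in the deposited table Srsf3 had 218 FPKM in Hdac3KO DP1 and 250.2 FPKM in WT DP1 cells, and Srsf7 had 181 FPKM in Hdac3KO DP1 and 169 FPKM in WT DP1 cells.

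Of the hnRNP genes 1 of 18 was called in DP1 cells. Hnrnpd, which encodes the AU-rich element binding protein AUF1, had a deposited 36.0 FPKM in Hdac3KO DP1 and 23.0 FPKM in WT DP1 cells, a log2 ratio of 0.65 ± 0.25 (q = 0.0424); with the length trend removed it was at 0.35 (q = 0.372), and it was not called with the GC trend removed either. Hnrnpa2b1, the most abundant member of all, had a deposited 1214 FPKM in Hdac3KO DP1 and 1205 FPKM in WT DP1 cells, a log2 ratio of 0.01 ± 0.26. Hnrnpl, a regulator of Cd45 exons, was equally close, with a deposited 148 FPKM in Hdac3KO DP1 and 153 FPKM in WT DP1 cells and a log2 ratio of -0.05 ± 0.24. Hnrnpk, a poly(C) binding protein, had a log2 ratio of -0.26 ± 0.28, and Hnrnpu, a nuclear scaffold protein, one of 0.39 ± 0.27. Hnrnpa1, which represses exons, had a deposited 135 FPKM in Hdac3KO DP1 and 256 FPKM in WT DP1 cells, but its standard error of 0.75 was the widest among the members named here and it was not called (q = 0.397).

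Among the members, the largest increases in Hdac3KO DP1 cells were those of Prpf genes. Prpf38b, a relative of a tri-snRNP protein, had a deposited 111 FPKM in Hdac3KO DP1 and 42.0 FPKM in WT DP1 cells, a log2 ratio of 1.40 ± 0.35 (q = 0.000879). Prpf39, whose yeast counterpart is part of U1, had a deposited 70.0 FPKM in Hdac3KO DP1 and 31.1 FPKM in WT DP1 cells, a log2 ratio of 1.17 ± 0.36 (q = 0.00882). Prpf4b, a kinase of the spliceosome, had a deposited 175 FPKM in Hdac3KO DP1 and 81.3 FPKM in WT DP1 cells, a log2 ratio of 1.10 ± 0.27 (q = 0.000879). The knockout value of each of these 3 genes was over that of WT cells by a factor above 2. Prpf3, of the U4/U6 particle, was higher as well, with a deposited 23.2 FPKM in Hdac3KO DP1 and 14.3 FPKM in WT DP1 cells, a log2 ratio of 0.70 ± 0.25 (q = 0.0291). All 4 stayed higher with the length trend removed, Prpf4b only just (q = 0.0497; 0.0579 with coding transcript lengths). Prpf19, a ubiquitin ligase of the catalytic complex, went the other way, with a deposited 8.94 FPKM in Hdac3KO DP1 and 16.9 FPKM in WT DP1 cells, a log2 ratio of -0.92 ± 0.26 (q = 0.00436). Prpf8, at the centre of the spliceosome, had a log2 ratio of -0.35 ± 0.26 and was not called.

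In DP2 cells few splicing factor genes differed between genotypes: 3 of 60 were higher and 1 lower, against 6.44% higher and 4.32% lower among all 10674 tested genes. Hnrnpd had a deposited 27.2 FPKM in Hdac3KO DP2 and 15.8 FPKM in WT DP2 cells, a log2 ratio of 0.78 ± 0.24 (q = 0.0163). Prpf38b had a deposited 108 FPKM in Hdac3KO DP2 and 63.2 FPKM in WT DP2 cells, a log2 ratio of 0.78 ± 0.23 (q = 0.0125). These genes were thus called higher at both stages, in tables that share no library. In both tables, however, the sex-linked Xist and Kdm5d differ with genotype, and the share of all genes called higher in both was not computed. With the length trend removed Prpf38b stayed higher in DP2 cells (q = 0.0424) and Hnrnpd was not called (q = 0.0574). Hnrnpa0, an AU-rich element binding protein, had a deposited 79.3 FPKM in Hdac3KO DP2 and 49.0 FPKM in WT DP2 cells, a log2 ratio of 0.70 ± 0.24 (q = 0.0333). The lower gene was Snrpc, with a deposited 26.7 FPKM in Hdac3KO DP2 and 48.9 FPKM in WT DP2 cells, a log2 ratio of -0.87 ± 0.28 (q = 0.0250). Centred on the median gene, whose log2 ratio was 0.12, 1 of the 3 higher members, Prpf38b, passed (q = 0.0445), and among all genes 4.37% were higher and 5.74% lower.

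The other Snrp genes were not called in DP2 cells; their class median was -0.17, and the 12 genes summed to 997 FPKM in Hdac3KO DP2 and 1121 FPKM in WT DP2 cells. Snrpd1 had a deposited 52.1 FPKM in Hdac3KO DP2 and 86.4 FPKM in WT DP2 cells (log2 ratio -0.73 ± 0.32, q = 0.128), whereas Snrpf had 179 FPKM in Hdac3KO DP2 and 167 FPKM in WT DP2 cells (0.09 ± 0.26, q = 0.881). No SR protein gene was called: 0 of 10 passed at a Cuffdiff q of 0.05, and Srsf5 alone was under an unadjusted deposited p of 0.05, at 0.0418, with 411 FPKM in Hdac3KO DP2 and 296 FPKM in WT DP2 cells. The SR median was 0.24 and the hnRNP median 0.15, close to the 0.12 of the median gene.

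**Figure D4:**
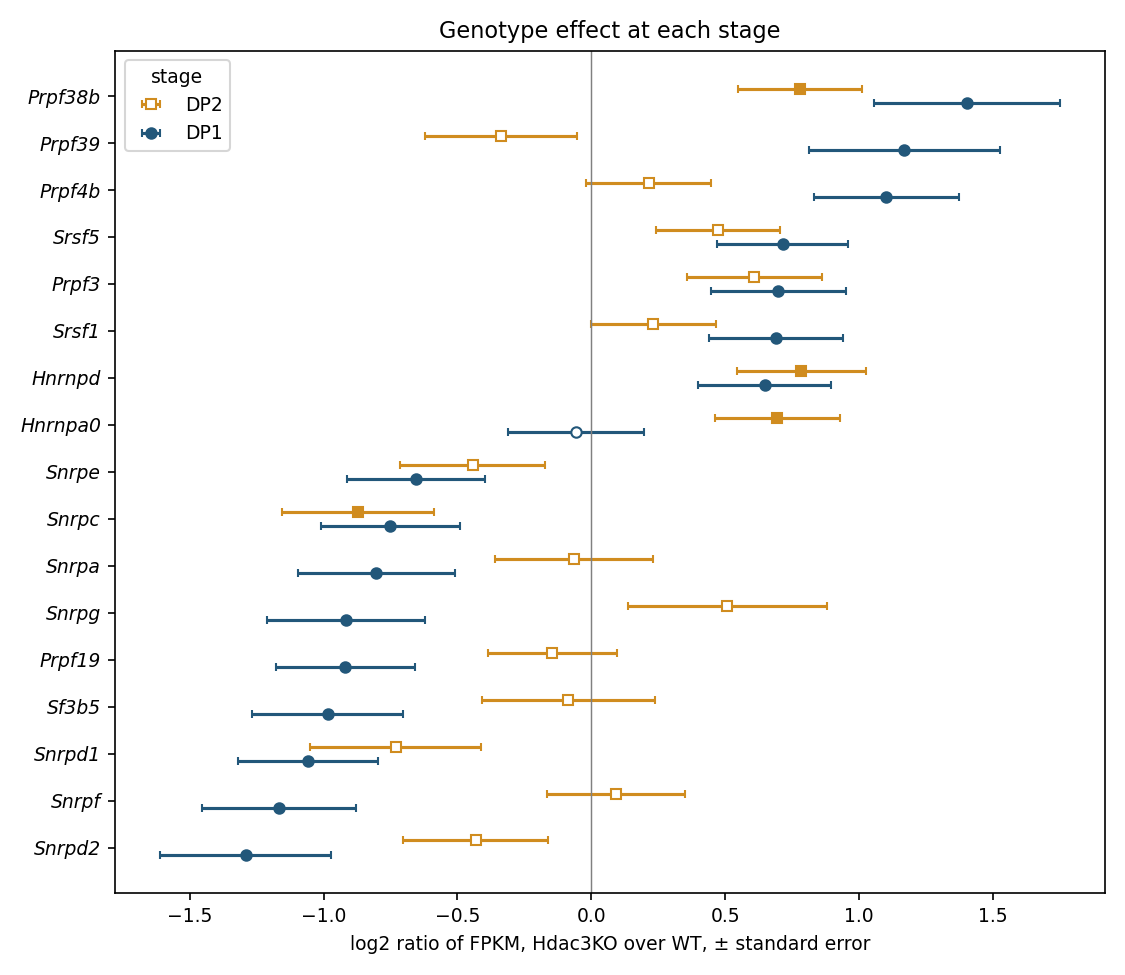
Log2 ratio of FPKM of Hdac3KO over WT cells (horizontal axis) for the 17 splicing factor genes called in either stage, with squares for DP2 and circles for DP1; bars are standard errors worked back from the deposited p, and filled symbols were called at a deposited q of 0.05. Prpf38b and Hnrnpd are called higher and Snrpc lower at both stages, while the DP1 and DP2 values of Prpf39, Snrpf and Snrpg lie on opposite sides of 0.

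Whether the genotype effect itself differed between the stages was tested on the difference of the log2 ratios, DP2 minus DP1, over 10144 genes, of which 0.848% were called positive and 1.13% negative. Of the 60 members 1 passed: Prpf39, with a difference of -1.50 ± 0.46 (q = 0.0497, Benjamini-Hochberg over all genes). Its FPKM in the deposited tables were 58.0 in Hdac3KO DP2 and 73.2 in WT DP2 cells, so that it was under WT at DP2 and over it at DP1. At an unadjusted p of 0.05 the count was 13 of 60 members, and 5 with the length trend removed. The share of all genes at that p was not computed, so these counts cannot show an excess among the members. Snrpf (1.26 ± 0.39, q = 0.0515), Snrpd3 (1.21 ± 0.38, q = 0.0587) and Snrpg (1.42 ± 0.47, q = 0.0763) came next. The deposited p of Snrpf in DP1 cells was at its minimum, so its standard error is an upper bound and its q may be too high. With the length trend removed Prpf39 was at -1.59 (q = 0.0487), Snrpf at 0.49 (q = 0.668), Snrpd3 at 0.92 (q = 0.254) and Snrpg at 0.71 (q = 0.589). Computed from the stage tables of the same libraries, Prpf39 (q = 0.0497) and Snrpd3 (q = 0.0427) passed, against 3.15% of all genes; these are values without removal of the length trend. With standard errors 1.5 times as large, 0 of all 10144 genes passed, members included, at a smallest member q of 0.984. Of the members 4 then had an unadjusted p under 0.05, and the share of all genes was not computed for that either.

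From DP1 to DP2 in WT cells, most of the tested Snrp, SF3A and SF3B genes were lower at the later stage, and most genes of the other classes were not called. Of the 60 tested members 24 were lower in WT DP2 cells and 1 higher, against 16.8% lower and 5.56% higher among 10851 genes. Centred on the median gene, which was itself at -0.33, 8 were lower and 2 higher, and among all genes 6.53% were lower and 10.8% higher. The lower calls were 9 of 11 Snrp, 5 of 8 SF3A and SF3B, 6 of 18 hnRNP, 3 of 10 SR protein and 1 of 13 Prpf genes. Class medians on the log2 scale were -1.11 for Snrp, -0.91 for SF3A and SF3B, -0.44 for hnRNP, -0.41 for Prpf and -0.37 for SR protein genes. This table shares the WT DP1 libraries with the DP1 genotype table, so its values are not independent of those above.

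Snrpf had a deposited 163 FPKM in WT DP2 and 497 FPKM in WT DP1 cells, a log2 ratio of -1.61 ± 0.40 (q = 0.000835). Snrpg had a deposited 56.7 FPKM in WT DP2 and 169 FPKM in WT DP1 cells, a log2 ratio of -1.57 ± 0.40 (q = 0.00150). For both genes the WT DP2 value was about a factor of 3 under that of WT DP1 cells. Next came Sf3b4, an SF3B subunit, with a deposited 7.54 FPKM in WT DP2 and 18.1 FPKM in WT DP1 cells, a log2 ratio of -1.26 ± 0.33 (q = 0.00207). Snrpd3 had a deposited 85.6 FPKM in WT DP2 and 195 FPKM in WT DP1 cells, a log2 ratio of -1.19 ± 0.31. Snrpd2 and Snrpd1 followed at -1.16 ± 0.28 and -1.15 ± 0.30. The Snrp genes summed to 1083 FPKM in WT DP2 and 2305 FPKM in WT DP1 cells, a ratio of 0.470, the lowest of the classes in any table. Snrpb2 and Snrpe were the tested Snrp genes that were not called (q = 0.567 and 0.0515 in the deposited table).

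Outside the Snrp genes, 15 members were lower in WT DP2 cells. Among the hnRNP genes they were Hnrnpab, at -1.15 ± 0.30 the largest fall in that class, Hnrnpul1, Hnrnpc, Hnrnpa0, Hnrnpd and Hnrnpl. The others were Srsf4, Srsf2 and Srsf9 among the SR protein genes, Sf3a1, Sf3a2, Sf3b2, Sf3b4 and Sf3b5 of the U2 complexes, and Prpf19. Hnrnpl had a deposited 105 FPKM in WT DP2 and 175 FPKM in WT DP1 cells, a log2 ratio of -0.74 ± 0.29 (q = 0.0448). Srsf1, Srsf3, Srsf5 and Srsf7 were not called, with log2 ratios of -0.34 ± 0.28, -0.60 ± 0.28, 0.21 ± 0.28 and 0.03 ± 0.28. Nor were the abundant Hnrnpa2b1 (-0.46 ± 0.36) and Hnrnpk (-0.41 ± 0.33), nor Hnrnpa1 (-0.66 ± 0.80), Hnrnpu (-0.11 ± 0.32), Sf3b1 (0.30 ± 0.29) and Prpf8 (-0.56 ± 0.31). The gene called higher was Prpf39, with a deposited 71.8 FPKM in WT DP2 and 35.0 FPKM in WT DP1 cells, a log2 ratio of 1.04 ± 0.39 (q = 0.0391).

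Among the 1920 tested genes in the Snrp length range, 24.8% were lower in WT DP2 cells, and 35.2% of the 937 with at least 10 FPKM, and the median there was -0.66. After subtraction of the length trend, 3 members stayed lower in WT DP2 cells (Snrpc at -1.07, q = 0.00464; Prpf19 at -0.82, q = 0.0312; Hnrnpd at -0.79, q = 0.0411), against 4.66% of all genes, and Prpf39 stayed higher (1.24, q = 0.0187), against 8.45%. The class medians were then -0.65 for SF3A and SF3B, -0.48 for Snrp, -0.24 for hnRNP, -0.10 for SR protein and -0.05 for Prpf genes. As in DP1 cells, Snrpc was not called with coding transcript lengths (-0.30, q = 0.557), and Snrpd3 was (-0.89, q = 0.0418); by those lengths 4.59% of all genes were lower.

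Between the stages in Hdac3KO cells 2 of 59 members were lower and 0 higher, against 4.65% lower and 1.78% higher among 10231 genes; no member with a ratio above 1 had an unadjusted p under 0.05. Snrpc had a deposited 24.2 FPKM in Hdac3KO DP2 and 50.9 FPKM in Hdac3KO DP1 cells, a log2 ratio of -1.07 ± 0.28 (q = 0.00285). Srsf1 had a deposited 54.4 FPKM in Hdac3KO DP2 and 88.0 FPKM in Hdac3KO DP1 cells, a log2 ratio of -0.69 ± 0.21 (q = 0.0156). Both passed with the length trend removed too, as did 4.63% of all genes in that direction. The Snrp median was -0.29, with 905 FPKM summed in Hdac3KO DP2 and 1111 FPKM in Hdac3KO DP1 cells. Snrpf had 162 FPKM in Hdac3KO DP2 and 198 FPKM in Hdac3KO DP1 cells in the deposited table (-0.29 ± 0.23). Snrpg had a deposited 76.2 FPKM in Hdac3KO DP2 and 78.7 FPKM in Hdac3KO DP1 cells (-0.05 ± 0.28). Over the 4 tables, which share libraries in pairs, 31 of the 62 members were called in none, among them 12 of 18 hnRNP genes and 2 of 12 Snrp genes (Snrpb2 and the untested Snrpn). Across the 4 tables Snrpc was the member called in every one, and always lower in the knockout or later group. The shares of all genes called in none or in all 4 tables were not computed. These counts therefore cannot set the members apart from other genes.

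Genes that work with these factors were counted in 11 lists of 138 symbols, of which 134 are in the tables. Of those 131 were tested. In Hdac3KO DP1 cells 21 were higher and 20 lower, against 10.7% and 12.9% of all tested genes. Most of the increases lay in 3 lists. The first was the SR-related proteins, 8 of 15 with 0 lower, led by Pnn (91.7 FPKM in Hdac3KO DP1 and 38.8 FPKM in WT DP1 cells in the deposited table) and Rbm25 (69.3 FPKM in Hdac3KO DP1 and 35.9 FPKM in WT DP1 cells). Of the 7 kinases of SR proteins 2 were higher, and Clk1 had a deposited 439.8 FPKM in Hdac3KO DP1 and 159 FPKM in WT DP1 cells. Of 28 other RNA binding regulators 8 were higher and 1 lower. Mbnl2 and Celf2, which control exon use in muscle and lymphocytes, led that last list at log2 ratios of 1.54 ± 0.38 and 1.43 ± 0.35, both upper bounds on the error. Rbm39, a U2AF-related protein, had a log2 ratio of 1.17 ± 0.29. Of the 20 decreases 12 lay in the LSm ring of U6, 4 of 7 (Lsm6 at -1.03 ± 0.27), the exon junction complex, 5 of 7 (Magohb at -1.26 ± 0.46), and the U5 and tri-snRNP partners, 3 of 10 (Ppih at -0.99 ± 0.31). The other decreases were 3 of 16 Prp19 complex genes, 2 of 7 Snrnp genes and 1 each in 3 more lists. With the length trend removed 17 partner genes were higher and 6 lower, against 8.85% and 5.64% of all genes. The lower calls left were 1 in the LSm ring, 1 in the exon junction complex and 0 among the U5 and tri-snRNP partners, and the higher calls left were 5 SR-related proteins, 2 kinases and 6 other regulators.

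In WT DP2 against WT DP1 cells 41 of the 131 partner genes were lower and 3 higher, against 16.8% and 5.56% of all tested genes, with 6 of 7 LSm genes lower (Lsm2 at -2.28 ± 0.56, Lsm5 at -1.88 ± 0.46) and 7 of 10 U5 and tri-snRNP partners. With the length trend removed 2 were lower and 9 higher, against 4.66% and 8.45% of all genes. In Hdac3KO against WT DP2 cells 8 were higher and 0 lower by Cuffdiff, against 6.44% and 4.32%, among them Clk3 (179 FPKM in Hdac3KO DP2 and 69.6 FPKM in WT DP2 cells in the deposited table), U2af1, which reads the 3′ splice site, and Rbm17. Between the Hdac3KO stages 4 were lower (Mbnl3, Qk, Lsm2 and Srrm1), against 4.65% of all tested genes.

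Other measures moved with these results, and their part was not tested. Of 43 S phase genes 28 were lower in Hdac3KO than in WT DP1 cells and 12 in Hdac3KO than in WT DP2 cells. Between stages 40 were lower in WT DP2 than in WT DP1 cells and 34 in Hdac3KO DP2 than in Hdac3KO DP1 cells. Among all tested genes 12.9%, 4.32%, 16.8% and 4.65% were lower, in the same order. With the length trend removed 14, 15, 30 and 34 S phase genes were lower, against 5.64%, 5.73%, 4.66% and 4.63% of all genes. Of 52 genes of the G2 and M phases 20, 21, 41 and 45 were lower by the deposited q, and 1 was higher in Hdac3KO DP1 cells. Xist, transcribed from the inactive X chromosome, had a deposited 208 FPKM in Hdac3KO DP1 and 0.0945 FPKM in WT DP1 cells, and 139 FPKM in Hdac3KO DP2 and 0.243 FPKM in WT DP2 cells, and the Y-linked Kdm5d went the other way. Sex and genotype cannot be told apart in these data. Hnrnph2 is the X-linked member and was called in no table. The targeted gene Hdac3 had a deposited 11.7 FPKM in Hdac3KO DP1 and 38.1 FPKM in WT DP1 cells, and 15.4 FPKM in Hdac3KO DP2 and 29.7 FPKM in WT DP2 cells. The 5 lists of markers of other cells summed to between 0.345 and 23.5 FPKM in every group, against 3872 FPKM or more for 12 double positive thymocyte markers, and Ncr1, a marker of NK cells, was listed at 0 in both WT groups. The 6 myeloid markers in the tables summed to 15.3 FPKM in Hdac3KO DP1 and 9.04 FPKM in WT DP1 cells, and to 23.5 FPKM in Hdac3KO DP2 and 14.0 FPKM in WT DP2 cells. Of the 3 tested, Itgam was higher in the knockout at both stages and H2-Ab1 lower at DP2. Alas2, the 1 erythroid marker tested, and Psmb11, 1 of 2 thymic epithelium markers tested, were higher in Hdac3KO DP1 cells, as were 10.7% of all tested genes. The median log2 ratio of the 2 epithelium markers there was 0.004. Neither list had a call between genotypes in DP2 cells. The double positive markers summed to 7312 FPKM in Hdac3KO DP1 and 5583 FPKM in WT DP1 cells, with 1 of 12 higher and 1 lower. At DP2 they summed to 8382 FPKM in Hdac3KO and 4020 FPKM in WT cells, with 5 of 12 higher. Exons of 26 of the 62 members overlap those of another annotated gene, 22 of them one on the opposite strand (Snrpf with Ccdc38, Prpf39 with Fkbp3). Whether the authors counted by strand is not given in the sources used here, so these values may hold reads of both. In bulk RNA, fewer cells with high levels and less RNA per cell cannot be told apart.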

How the data were processed

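RNA of 8 libraries (4 groups of 2) was measured by the authors. Per the submitters' processing notes, reads were trimmed with Trimmomatic 0.32, and TopHat2 2.0.11 and Cuffdiff 2.1.1 were run on the mm10 build; settings and annotation are not given in the sources used here. The authors deposited 1 FPKM per gene and group, normalized within each of 4 tables, so that the median ratio of the same group's FPKM between tables was, among the members, 0.997 in Hdac3KO DP1, 1.10 in Hdac3KO DP2, 0.883 in WT DP1 and 1.04 in WT DP2. Depth per library is unknown, and levels should be compared within a table only. The authors' deposited q-value equals the Benjamini-Hochberg adjustment of the deposited p-value (smallest p 5e-05) to within 5.26e-07. A score, the test statistic of Cuffdiff, is also in the deposited tables per the file headers and was not used. The deposited log2 column was not used either: log2 ratios were recomputed from FPKM.

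The standard error of a log2 ratio is its absolute value divided by the normal quantile that belongs to the deposited p of Cuffdiff, and an upper bound where that p is at its minimum. Above 0.95, where the quotient is unstable, the median standard error of genes in the same of 20 FPKM bins was taken. Calls use the deposited q at 0.05. Trends on length or GC were fitted by lowess (fraction 0.3) over genes of at least 10 FPKM in both groups, with lengths of the longest GENCODE M21 transcript, subtracted, and genes retested with a two-sided normal p and Benjamini-Hochberg adjustment; the difference of genotype effects was tested in the same way. The difference test and the trend removal were tested on simulated data. Alternatives were q thresholds of 0.01 and 0.1, a log2 change of 1, adjustment over 4 tables, at least 5 FPKM, centring, length, GC, a pseudocount of 1 and, for the difference, the stage tables and wider errors. Named genes are, per comparison, the 6 called members with the largest change in each direction and at least 5 FPKM, fixed well-known members, the most abundant of each class and at most 2 called genes per partner list; Snrpc, Snrpa, Snrpe and others beyond the rule were named after their values were seen, and 1 gene that the rule names is not reported here. Members and lists were chosen with earlier results of these data known. Python 3.11.15, pandas 2.3.3, numpy 2.4.6, scipy 1.17.1, statsmodels 0.14.6 and matplotlib 3.10.9 were used.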

Additional observations from a re-analysis of the deposited data

Results flagged for a closer look

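The genotype effect on Prpf39 differed between the stages by -1.50 on the log2 scale (DP2 minus DP1, SE 0.46, q = 0.0497 over 10144 genes). It had a log2 ratio of -0.34 ± 0.28 in DP2 cells and 1.17 ± 0.36 in DP1 cells, Hdac3KO over WT. It was the single member past 0.05 in that test of the difference. Its q was 0.0497 by the route of the stage tables and 0.0487 with the length trend removed. Snrpf, whose standard error is an upper bound, was at q = 0.0515 in that test.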

How the results depend on the processing

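No paired analysis was possible because the tables hold 1 value per group and none per library; for the same reason no library could be left out. Counts of called members are given in the order higher, lower. For Hdac3KO over WT in DP1 cells (7 and 9), they were 3 and 5 at a q of 0.01, 3 and 3 with a log2 change of at least 1, 5 and 5 with the length trend removed, 4 and 5 with coding transcript lengths (an alternative chosen after seeing the data), and 4 and 9 with the GC trend removed. Centring gave 8 and 6. Some of these calls were new. With the length trend removed the lower calls include Hnrnpr (q = 0.0429) and Prpf4 (q = 0.0425), which the deposited q did not call. By the deposited values Hnrnpr was not lower in Hdac3KO DP1 cells (log2 ratio 0.13, q = 0.749). Its annotated transcript of 21452 nt, the same in both length sets, is the longest of the members. The trend subtracted at that length was 0.83. With coding transcript lengths the new lower calls were Hnrnpr (q = 0.0400), Prpf4 (q = 0.0380) and Prpf8 (q = 0.0469). In DP2 cells (3 and 1), they were 0 and 0 at a q of 0.01 and with a log2 change of 1, 5 and 1 at a q of 0.1, and 1 and 1 with centring and with either length. With the GC trend removed they were 2 and 1. Between WT stages (1 and 24), they were 0 and 15 at a q of 0.01, 2 and 29 at a q of 0.1, and 1 and 15 with a log2 change of 1. They were 0 and 21 over 4 tables, 2 and 8 with centring, and 1 and 3 with the length trend removed. Coding transcript lengths gave 3 and 3, with Hnrnph1 (q = 0.0410) and Srsf5 (q = 0.0349) new among the higher. Removal of the GC trend gave 1 and 8. Between Hdac3KO stages (0 and 2), the lower count was 1 at a q of 0.01, with a log2 change of 1 and with the GC trend removed, and 3 at a q of 0.1 and over 4 tables. For the difference of effects, 1 member passed, 4 at a q of 0.1, 2 by the stage tables and 0 with wider errors. With wider errors 0 of all 10144 genes passed. Snrpe in Hdac3KO over WT DP1 cells changed sign with the length trend removed (0.086 by longest and 0.12 by coding transcript). Over all called members and settings, 308 kept direction and side of the threshold, 160 kept direction but lost the call and 2 reversed. These totals include a q of 0.1 and a pseudocount of 1, neither of which could end a call, as the second kept the deposited q. With the length trend removed 16 of the 47 calls stayed, 30 were lost and 1 reversed. With coding transcript lengths these counts were 14, 32 and 1. A pseudocount of 1 left all 47 called log2 ratios and 24 class medians within the limits set for no change. With 2 libraries per group pooled into 1 deposited value, spread between animals is not visible, and which length suits each gene is not known.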
